A study of Mus musculus with 12 samples.

Results

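Sox10, S100b, Ngfr, Gfap, Cdh19 and Erbb3 are genes by which Schwann cells and the glia around pancreatic islets are recognised. They were followed across all probe sets that the platform annotation pairs with 1 of these symbols alone. They are 6 of the 18193 genes that at least 1 probe set names alone, and they have 14 of the 45037 probe sets other than controls. A filter kept probe sets that exceeded 5 on the log2 scale on 3 or more arrays; 10 of the 14 passed it, and each of the 6 genes had at least 1 among them. The brightest probe set of a gene, by its mean over the 12 arrays, is called its lead probe set, and the others are the second and the third in order of brightness.

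RNA had been measured on 12 Affymetrix mouse genome expression arrays from C57BL6 mice. The 4 groups of 3 arrays were KO mice on a high-fat diet, WT mice on a high-fat diet, KO mice on a normal diet and WT mice on a normal diet. The KO mice lack Sgpp2, which encodes a phosphatase that removes the phosphate from sphingosine-1-phosphate; the sources used here give no allele, age or length of diet. Pancreatic islets are named in the series title alone, since no sample label gives a tissue. Whether arrays of a group stand for separate animals is not stated, so the p-values reflect array-to-array spread that may be technical.

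Schwann cells ensheathe the axons of peripheral nerves. In the pancreas, non-myelinating Schwann cells accompany the autonomic fibres that reach the islets and form a sheath along the islet border, where Gfap and S100b are the usual markers. Their lineage depends on the transcription factor Sox10 and on neuregulin from axons, which is received by Erbb3 together with Erbb2.

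The targeted gene was read before the glial genes. Sgpp2 averaged 11.09 ± 0.05 on the KO high-fat arrays and 11.50 ± 0.06 on the WT high-fat arrays, and 11.06 ± 0.09 on the KO normal arrays and 11.57 ± 0.06 on the WT normal arrays (log2, SD, n = 3 each). The KO level was 72.7% of the WT level over both diets (log2 difference −0.46, SE 0.06, limma adjusted p = 0.00252), and those sources do not say whether its probe set lies in the deleted part. The islet hormones were bright on all arrays, with Ins2 between 14.36 and 14.71 and Gcg between 14.30 and 14.55, and the islet endocrine list had 8 of 8 named markers above the filter. Within a group, pairs of arrays had r of 0.991 to 0.995 over the tested probe sets.

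Sequence of the region before the gene start was at hand in RefSeq for 3 of the 6 genes. They are S100b, Ngfr and Gfap, shown so that the starts of an S100 protein, a receptor and a filament gene of the same glia can be read side by side. Each run covers 250 bases before the start, read 5′ to 3′ on the gene's strand in build GRCm38.p6, and capitals mark matches on either strand to the GC box GGGCGG or to CCAAT. S100b lies at chr10:76253586-76253835 on the plus strand, Ngfr at chr11:95587699-95587948 and Gfap at chr11:102897201-102897450, both on the minus strand.
S100b: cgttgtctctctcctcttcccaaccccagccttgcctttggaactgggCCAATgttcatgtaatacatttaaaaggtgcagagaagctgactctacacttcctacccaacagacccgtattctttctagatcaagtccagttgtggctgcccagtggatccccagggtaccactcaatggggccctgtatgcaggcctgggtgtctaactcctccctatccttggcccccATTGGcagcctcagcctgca
Ngfr: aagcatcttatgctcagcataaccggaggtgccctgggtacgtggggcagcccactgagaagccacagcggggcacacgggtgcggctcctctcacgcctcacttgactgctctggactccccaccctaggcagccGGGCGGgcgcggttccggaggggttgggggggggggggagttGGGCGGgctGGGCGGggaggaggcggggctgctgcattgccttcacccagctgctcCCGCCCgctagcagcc
Gfap: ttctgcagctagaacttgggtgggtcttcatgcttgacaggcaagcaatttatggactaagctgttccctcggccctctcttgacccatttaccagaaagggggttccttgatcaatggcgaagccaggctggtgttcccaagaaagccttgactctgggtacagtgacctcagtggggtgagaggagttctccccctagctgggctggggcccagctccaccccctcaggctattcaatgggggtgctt

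Ngfr held 4 GC boxes and S100b 2 CCAAT motifs, while Gfap held neither. Among 32851 promoters of this length in the same table, 32.7% held GGGCGG and 33.8% held CCAAT. The SOX core ACAAAG or ACAATG, searched on both strands, occurred in none of the 3 windows and in 25.2% of all promoters, and the TATA box TATAAA also occurred in none of the 3 and in 12.4% of all. The GC content was 53.6% for S100b, 70.4% for Ngfr and 55.6% for Gfap, against a median of 52.4% over all promoters in the table. These matches describe letters in the window and nothing about binding.

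Sox10, the transcription factor of the neural crest glial lineage, lies on chromosome 15. Its lead probe set read 6.16, 5.99 and 6.22 on the KO high-fat arrays, 6.34, 6.22 and 6.00 on the WT high-fat arrays, 6.60, 6.60 and 6.52 on the KO normal arrays, and 6.86, 6.28 and 7.80 on the WT normal arrays. WT normal array 3 was the highest of the 12, and 0.95 above the next, WT normal array 1. The KO high-fat arrays all lay below the KO normal arrays, whereas the WT high-fat and WT normal arrays overlapped. The other probe sets of Sox10 moved less: the second spanned 5.79 to 6.38 and the third 5.03 to 5.56 over the 12 arrays. The lead probe set correlated with them at r = 0.53 and 0.26 over the arrays, and on WT normal array 3, where the lead read 7.80, they read 6.24 and 5.29.

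S100b encodes a calcium-binding protein that is abundant in Schwann cells and lies on chromosome 10. Its lead probe set read 6.35, 5.95 and 5.88 on the KO high-fat arrays, 6.34, 6.45 and 6.02 on the WT high-fat arrays, 6.61, 6.25 and 6.43 on the KO normal arrays, and 6.48, 6.28 and 7.52 on the WT normal arrays. Here too WT normal array 3 stood highest, above KO normal array 1 at 6.61, and the groups overlapped. The second probe set followed the lead closely (r = 0.94 over 12 arrays and 0.79 without WT normal array 3) and was likewise highest on WT normal array 3, at 6.57.

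Cdh19, a cadherin of the peripheral glial lineage, is on chromosome 1, as is Sgpp2. It had 1 probe set, which read 6.66, 6.26 and 6.98 on the KO high-fat arrays, 6.42, 7.02 and 6.15 on the WT high-fat arrays, 7.16, 6.91 and 6.73 on the KO normal arrays, and 6.58, 6.19 and 7.66 on the WT normal arrays. All 4 groups overlapped. The WT arrays held both the 2 lowest values and the highest, so that the SD was 0.76 among the WT normal arrays and 0.44 among the WT high-fat arrays, against 0.36 among the KO high-fat arrays and 0.22 among the KO normal arrays.

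Gfap, the intermediate filament protein of glia, was dim. Its lead probe set read 5.02, 5.19 and 5.40 on the KO high-fat arrays, 4.92, 5.23 and 5.26 on the WT high-fat arrays, 5.64, 5.29 and 5.32 on the KO normal arrays, and 5.27, 5.31 and 5.56 on the WT normal arrays. The WT high-fat arrays lay just below the WT normal arrays without overlap, and the KO arrays of the diets overlapped. The second and the third Gfap probe sets did not pass the filter: they spanned 4.04 to 5.07 and 3.05 to 4.51.

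Ngfr encodes the neurotrophin receptor p75, which Schwann cells, neurons and stellate cells make. Its lead probe set read 5.92, 5.59 and 6.10 on the KO high-fat arrays, 5.60, 5.70 and 5.34 on the WT high-fat arrays, 6.35, 5.96 and 6.57 on the KO normal arrays, and 5.80, 5.80 and 6.48 on the WT normal arrays. The highest array was KO normal array 3 rather than WT normal array 3, and the WT high-fat arrays lay below all WT normal arrays. The second Ngfr probe set was above the filter level on 6 of 12 arrays and reached 5.51 and 5.53 on KO normal arrays 2 and 3, against 4.75 to 5.03 on the WT normal arrays. The other arrays above that level were KO high-fat arrays 2 and 3, WT normal array 2 and WT high-fat array 3. The WT arrays alone would not have met the filter. The third probe set, drawn from the same transcript record as the second, did not pass the filter, with a highest value of 5.07.

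Erbb3, the neuregulin receptor, is also made by many epithelial cells and varied least. Its lead probe set read 9.59, 9.33 and 9.41 on the KO high-fat arrays, 9.51, 9.53 and 9.23 on the WT high-fat arrays, 9.57, 9.34 and 9.30 on the KO normal arrays, and 9.59, 9.42 and 9.53 on the WT normal arrays. Its SD over the 12 arrays was 0.12, and the groups overlapped throughout. The SDs of the other lead probe sets were 0.20 for Gfap, 0.38 for Ngfr, 0.42 for S100b, 0.45 for Cdh19 and 0.49 for Sox10. A second Erbb3 probe set stayed between 3.55 and 3.87 and did not pass the filter; the pair correlated at r = −0.01.

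**Figure D1:**
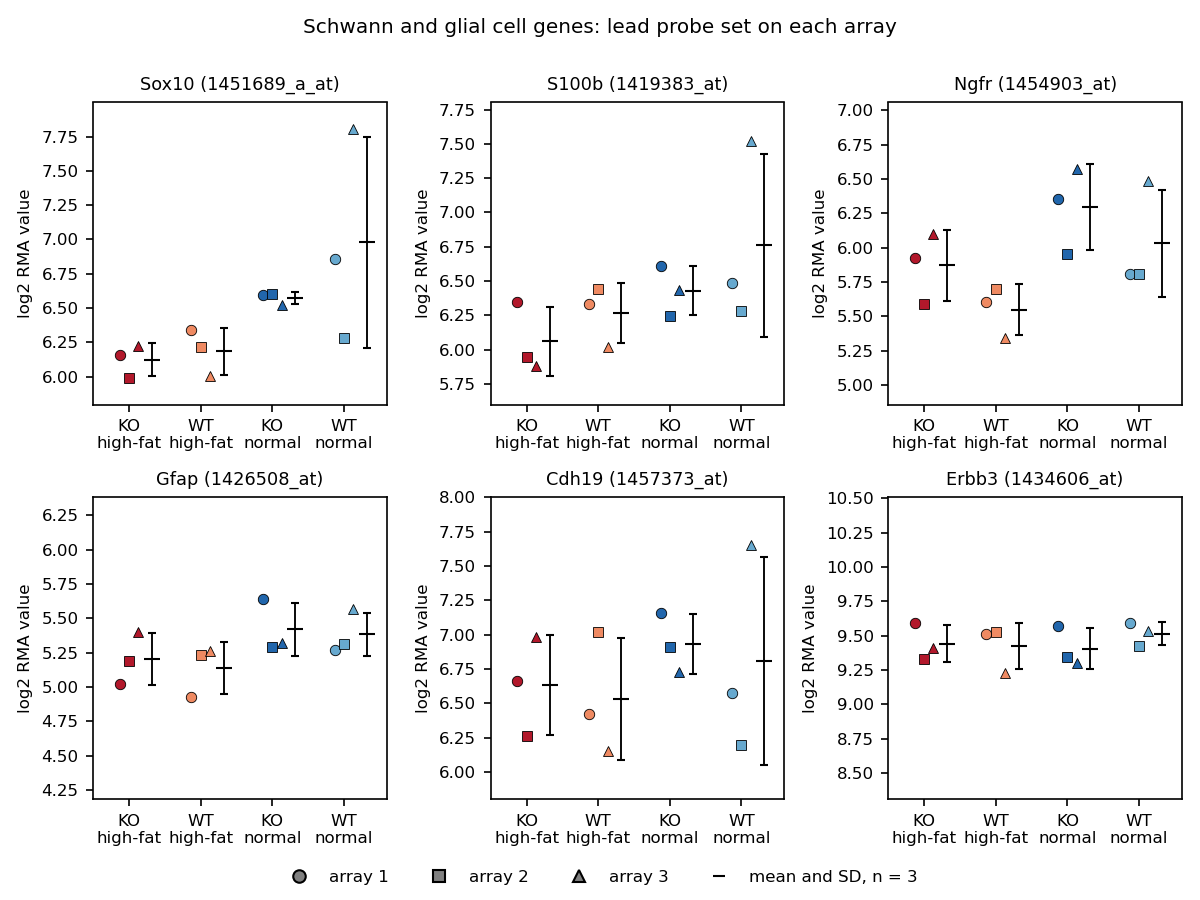
Log2 RMA value of the lead probe set of each gene (vertical axis, the same span in every panel) on each of the 12 arrays, with the mean and SD of each group of 3 beside its points. WT normal array 3 is the highest point for Sox10 (7.80), S100b (7.52) and Cdh19 (7.66), and Erbb3 lies between 9.23 and 9.59 in all groups.

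WT normal array 3 stood apart for other genes of nerve as well, though not for these alone. The mean level of the 6 lead probe sets was 7.43 there, and 6.99 on the next array, KO normal array 1. Of 24 further Schwann cell and glia genes above the filter, 9 were highest on it. Farthest above the mean of the other arrays were Fabp7, a fatty acid binding protein of immature glia, at 8.28 against at most 7.05 elsewhere, and Kcna1, a potassium channel of axons, at 7.21 against at most 6.44. Others of the list, such as Ednrb at 10.95 and Dhh at 5.31, lay below the mean of the other arrays. The share of all probe sets that were highest on this array was not counted, so neither this count nor that of the neuron markers has a background. Of 13 neuron markers above the filter, 9 were highest on it: Nefl, a neurofilament protein, read 10.19 there and at most 9.42 elsewhere, and Prph, the filament protein of peripheral neurons, read 10.58 and at most 9.68. WT normal array 3 also had the highest mean level of S100 (9.61, next 9.44) and intermediate filament genes (9.73, next 9.59). The same held by little for stellate cell, pericyte and fibroblast (8.88, next 8.87), macrophage and myeloid (8.77, next 8.76) and neurotrophin genes (9.051, next 9.048). Other arrays were highest for the endothelial, acinar, duct and islet endocrine lists.

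The mean level of the neuron list ranged from 8.83 to 9.34 on the KO high-fat arrays, 8.72 to 9.25 on the WT high-fat arrays, 9.50 to 9.78 on the KO normal arrays and 9.30 to 10.22 on the WT normal arrays. Its upper end, 10.22, was WT normal array 3. Chat, a defining marker of cholinergic neurons, did not pass the filter, and several markers of the list, such as Snap25, are also made by islet endocrine cells. Stellate cell, pericyte and fibroblast markers, 13 of 13 above the filter, had mean levels of 8.44 to 8.77, 8.38 to 8.65, 8.57 to 8.76 and 8.53 to 8.88 in the same order of groups. The islet endocrine list stayed between 13.68 and 13.99 on all arrays. The part that the amount of nerve in a sample has in the values of the glial genes was not tested, and values without WT normal array 3 stand beside those that leaving it out moved most. In bulk RNA, fewer glial cells and less RNA per glial cell cannot be told apart.

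**Figure D2:**
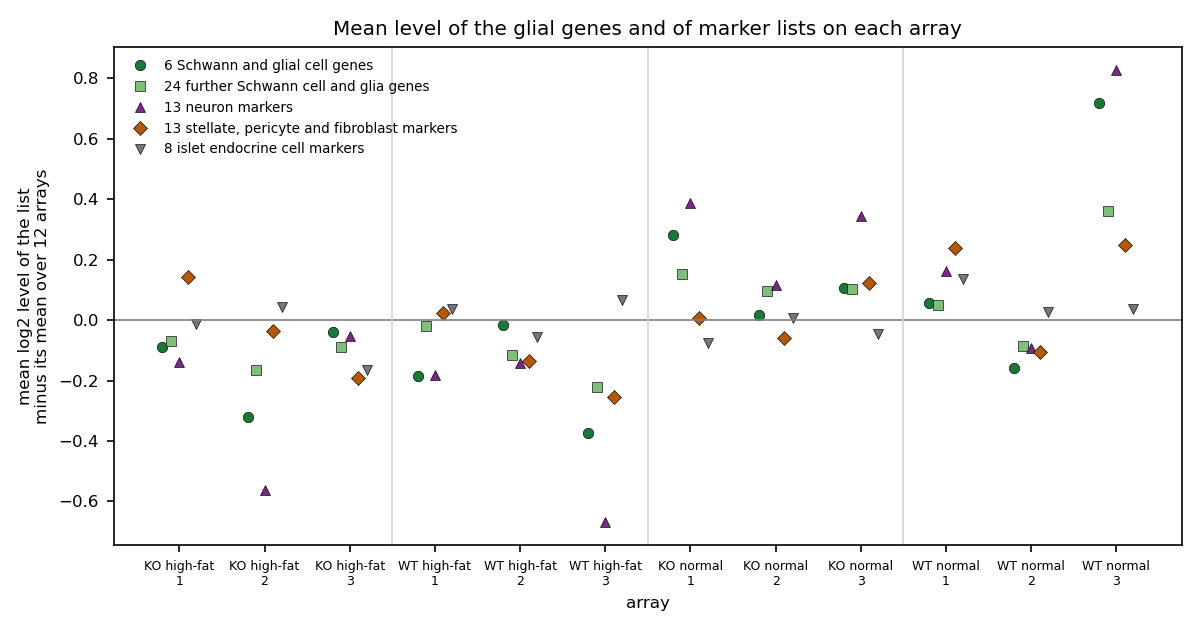
Mean log2 level of 5 gene lists on each array, as the difference from the list's own mean over the 12 arrays (vertical axis), with arrays in their 4 groups along the horizontal axis. The glial genes were 0.72 above their mean and the neuron markers highest on WT normal array 3, while the islet endocrine markers stayed near 0.

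The comparison of KO with WT mice asks whether loss of Sgpp2 is accompanied by a different level of glial genes. With limma, fitted to all 35426 probe sets above the filter and adjusted by Benjamini-Hochberg over all of them, 0 of the 10 glial probe sets passed the adjusted p threshold of 0.05 on the high-fat diet, on the normal diet or in the average over both diets. Over all tested probe sets the share called was 0.271% on the high-fat diet, 1.34% on the normal diet and 8.39% in the average. At an unadjusted p under 0.05 the glial counts were 0, 1 and 1 of 10, where the shares of all probe sets were 14.8%, 21% and 28.1%. Nor did the KO and WT arrays separate without overlap for any of the 10 probe sets on either diet. The shares of all probe sets were 16.8% on the high-fat diet and 31.3% on the normal diet. With the diets pooled, all KO arrays lay apart from all WT arrays for 0 of the 10, against 5.46% of all probe sets.

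In the average over diets 6 of the 10 probe sets were higher in KO and 4 lower, with a median log2 difference of 0.04 (−0.04 over all tested probe sets). The smallest p belonged to Ngfr. Its second probe set averaged 5.10 ± 0.16 on the KO high-fat and 4.99 ± 0.02 on the WT high-fat arrays, and 5.34 ± 0.31 on the KO normal and 4.92 ± 0.15 on the WT normal arrays (SD, n = 3 each). Its log2 difference was 0.27 (SE 0.10, limma unadjusted p = 0.0245, adjusted p = 0.122), and without KO normal array 1, at 4.98 the lowest of its group, it was 0.35 with an adjusted p of 0.0312, the sole call of a glial probe set under any alternative. This probe set met the filter only through the KO arrays, where it was higher. Its p-values therefore cannot count as support for a difference. The lead probe set of Ngfr gave a difference of similar size, 0.29 (SE 0.15, limma adjusted p = 0.222), or 0.41 without WT normal array 3 (adjusted p = 0.0945). The third, outside the filter, gave 0.10. Of the 13 neuron markers, 9 were higher in KO, with a median of 0.11 (0.21 without WT normal array 3) and 0 past the threshold; their part in the Ngfr values was not tested.

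The lead probe sets of S100b and Sox10 had negative averages that were smaller without WT normal array 3. The log2 difference of S100b was −0.27 for the lead probe set (95% interval −0.68 to 0.14, limma adjusted p = 0.373) and −0.23 for the second, and without that array −0.08 and −0.07. For Sox10 it was −0.23 for the lead probe set (95% interval −0.66 to 0.20, adjusted p = 0.459) and −0.03 without that array, while the second and the third Sox10 probe sets gave 0.03 and 0.08. On the normal diet the Sox10 difference was −0.41 with all arrays and 0.00 without WT normal array 3, and that of S100b −0.33 and 0.05. On the high-fat diet, where that array enters the shared spread but not the difference, Sox10 gave −0.06 and S100b −0.21. S100b stayed negative there without each array in turn (−0.35 to −0.12).

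Cdh19, Gfap and Erbb3 had averages within the spread between arrays: 0.11 for Cdh19 (95% interval −0.41 to 0.63), 0.05 for Gfap (−0.17 to 0.27) and −0.05 for Erbb3 (−0.22 to 0.13), with limma adjusted p-values of 0.789, 0.775 and 0.744. The sign for Erbb3 depended on the scaling, with 0.01 after centring each array on its median and 0.02 after cyclic loess. The interval for Erbb3 covers KO to WT ratios from 0.857 to 1.09, and that for Cdh19 the wider range from 0.754 to 1.55. Without WT normal array 3 the Cdh19 difference was 0.32 (adjusted p = 0.277). The median standard error of the glial probe sets was 0.13 in this comparison and 0.09 over all tested probe sets.

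The comparison of the high-fat with the normal diet asks whether diet is accompanied by a change in the glial genes. All 10 glial probe sets were lower on the high-fat diet in the average over genotypes, with a median log2 difference of −0.26 against 0.00 over all tested probe sets, but 0 passed the adjusted threshold, where 0.178% of all probe sets did. At an unadjusted p under 0.05 the count was 4 of 10, against 13.9% of all probe sets. Without WT normal array 3 all 10 were still lower, with a median of −0.15, and 2 were at an unadjusted p under 0.05. The share of all probe sets under 0.05 in that fit is not given here. The 10 probe sets belong to 6 genes and share the arrays, so they are not independent of each other, and no test was made over them.

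Sox10 had the largest of these differences. Its lead probe set averaged 6.13 ± 0.12 on the KO high-fat and 6.57 ± 0.04 on the KO normal arrays, and 6.19 ± 0.17 on the WT high-fat and 6.98 ± 0.77 on the WT normal arrays (SD, n = 3 each). The average log2 difference was −0.62 (SE 0.20, 95% interval −1.05 to −0.19, limma unadjusted p = 0.00857, adjusted p = 0.193) and −0.41 without WT normal array 3 (adjusted p = 0.213). The other Sox10 probe sets gave −0.16 and −0.06 (adjusted p = 0.424 and 0.811), so the size of the difference depended on the probe set.

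For Ngfr the lead probe set averaged 5.87 ± 0.26 on the KO high-fat and 6.29 ± 0.31 on the KO normal arrays, and 5.55 ± 0.19 on the WT high-fat and 6.03 ± 0.39 on the WT normal arrays (SD, n = 3 each). The average difference was −0.45 (SE 0.15, limma unadjusted p = 0.0108, adjusted p = 0.205), or −0.34 without WT normal array 3. Its second probe set gave −0.09. S100b gave −0.43 and −0.33 with its 2 probe sets (adjusted p = 0.340 and 0.404), and −0.24 and −0.18 without WT normal array 3. The lead probe set of Gfap gave −0.23 (SE 0.10, adjusted p = 0.331). Cdh19 gave −0.29 (SE 0.24, adjusted p = 0.640), which came to −0.08 without WT normal array 3, and Erbb3 gave −0.03 (95% interval −0.20 to 0.15).

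The diets were also compared within each genotype. In KO mice, where WT normal array 3 takes no part in the difference, 8 of 10 probe sets were lower on the high-fat diet, with a median of −0.26 (0.01 over all tested probe sets); the lead probe sets gave −0.45 for Sox10, −0.42 for Ngfr, −0.37 for S100b, −0.30 for Cdh19, −0.22 for Gfap and 0.04 for Erbb3. In WT mice 9 of 10 were lower, with a median of −0.26 (0.00 over all), and −0.79 for Sox10, −0.48 for Ngfr, −0.49 for S100b, −0.28 for Cdh19, −0.24 for Gfap and −0.09 for Erbb3. Without WT normal array 3 the WT count was 7 of 10 and the median −0.13, and the lead probe sets gave −0.38 for Sox10, −0.26 for Ngfr, −0.11 for S100b, 0.14 for Cdh19, −0.15 for Gfap and −0.08 for Erbb3. The shares called over all probe sets were 0% in KO mice and 0.0508% in WT mice, and 0 glial probe sets were called in either. With all arrays, 1 of 10 in KO and 2 of 10 in WT had an unadjusted limma p under 0.05, against 8.4% and 11.2% of all. WT normal array 3 enters the spread that all groups share. Without it these counts were 4 of 10 in KO and 1 of 10 in WT. The shares of all probe sets in that fit are not given here, so these latter counts have no background.

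Arrays of the diets did not overlap for 2 of the 10 probe sets in KO mice (13.3% of all tested), both of Sox10, and for 3 of 10 in WT mice (15.7% of all). The 3 in WT were the lead probe sets of Ngfr and Gfap and the third probe set of Sox10. For 0 of 10 were the diets apart in both genotypes. With the genotypes pooled, all high-fat arrays lay apart from all normal arrays for 0 of 10, against 1.03% of all probe sets.

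**Figure D3:**
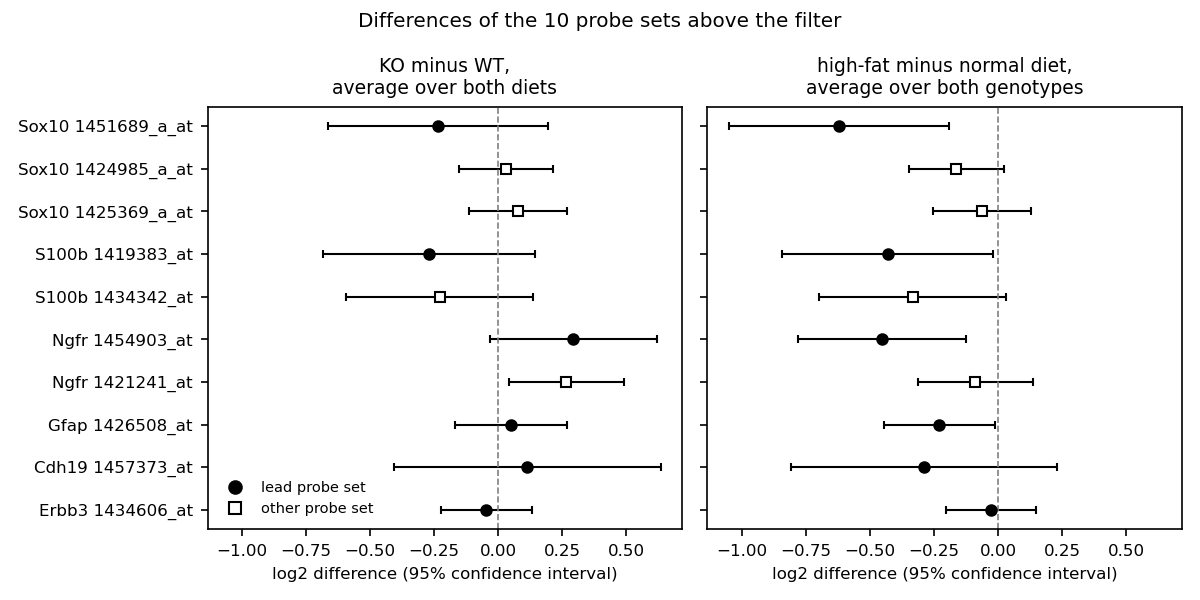
Log2 difference of KO minus WT averaged over diets (left) and of the high-fat minus the normal diet averaged over genotypes (right) for the 10 probe sets above the filter, with the 95% confidence interval of the limma fit. All 10 points lie below 0 for the diet, from −0.62 for Sox10 to −0.03 for Erbb3, and the genotype differences lie on both sides of 0.

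The interaction asks whether the difference between KO and WT changes with diet. It passed for 0 of the 10 glial probe sets and for 0% of all tested probe sets (limma adjusted p = 1.00 for each of the 10), and 0 of the 10 had an unadjusted p under 0.05, against 4.99% of all. For the lead probe set of Sox10 the interaction was 0.35 (SE 0.39), so that an interaction as large as 1.21 or as low as −0.51 lies within its 95% interval. Among the probe sets outside the filter, the third of Gfap read 3.63, 3.99 and 4.51 on the KO high-fat arrays and 3.45, 3.39 and 3.05 on the WT high-fat arrays, which did not overlap, and 4.34, 3.83 and 3.42 on the KO normal arrays and 4.12, 3.83 and 4.44 on the WT normal arrays, which did. In a fit without the filter its KO to WT difference on the high-fat diet was 0.75 (adjusted p = 0.239) and its interaction 1.02 (adjusted p = 0.953), while the lead probe set gave 0.06 and 0.03. The median interaction of the 10 probe sets was 0.09 with all arrays and −0.12 without WT normal array 3.

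How the glial genes moved with each other was examined over the 12 arrays for the 15 pairs of lead probe sets. All 15 Pearson correlations were positive, with a median of 0.59, and 4 passed a permutation test after Benjamini-Hochberg adjustment over the 15 pairs. Sox10 and S100b were the closest pair (r = 0.91, permutation p = 0.00069, adjusted p = 0.0103; Spearman rho = 0.64, permutation p = 0.0282, adjusted p = 0.0846). Cdh19 correlated with Sox10 at r = 0.73, with S100b at 0.72 and with Ngfr at 0.73 (permutation p = 0.00719, 0.00955 and 0.00633; adjusted p = 0.0358 for each), with rho = 0.52, 0.56 and 0.73 (permutation p = 0.0843, 0.0631 and 0.00854; adjusted p = 0.141, 0.118 and 0.0640). No pair passed by Spearman's rho. Erbb3 was the least connected: its r was 0.51 with S100b, 0.44 with Cdh19, 0.39 with Sox10, 0.21 with Ngfr and 0.03 with Gfap.

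The 4 calls did not hold on fewer arrays, although not all r values were lower. Without the 2 arrays farthest from the median of the gene named first in a pair, 0 pairs passed, with r = 0.66 for Sox10 and S100b, 0.61 for Sox10 and Cdh19, 0.74 for S100b and Cdh19 and 0.78 for Ngfr and Cdh19. Without WT normal array 3 alone, 0 pairs passed and the r values were 0.67, 0.44, 0.40 and 0.65 in the same order; 14 of 15 pairs were still positive, with a median of 0.43. Taken as deviations from the 4 group means, which removes genotype and diet, 6 pairs passed over the 12 arrays, and Sox10 and S100b had r = 0.87. WT normal array 3 was kept in that setting, which was not run without it. Deviations within a group depend on each other, so permuting them freely makes the p-values of that setting approximate.

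**Figure D4:**
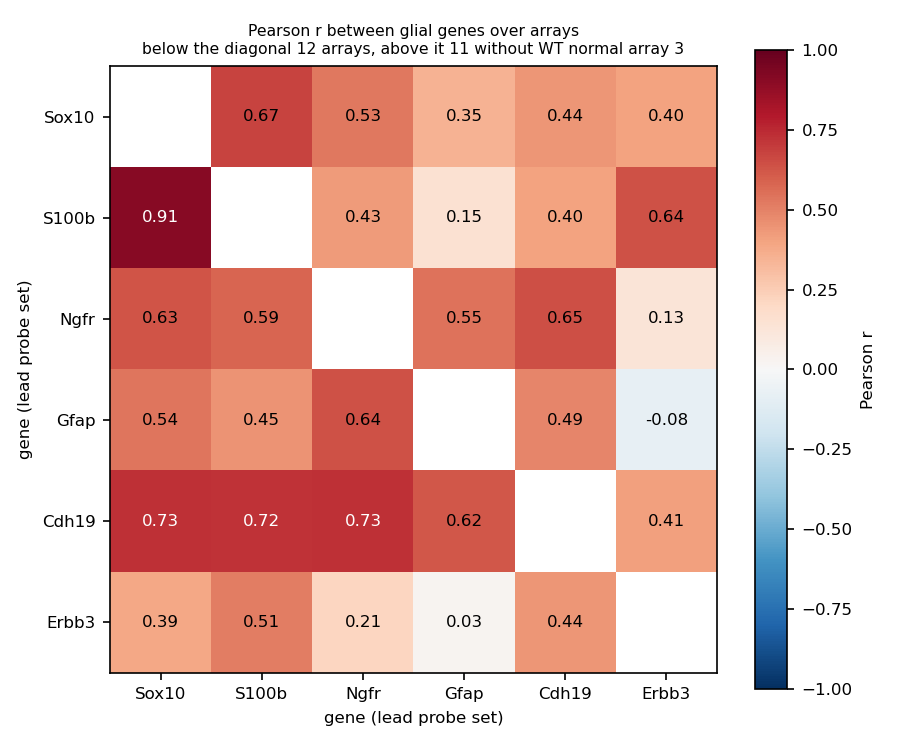
Pearson r between the lead probe sets of the 6 genes, over 12 arrays below the diagonal and over the 11 arrays without WT normal array 3 above it. Sox10 and S100b have r = 0.91 over 12 arrays and 0.67 over 11, and Gfap and Erbb3 have 0.03 and −0.08.

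**Figure D5:**
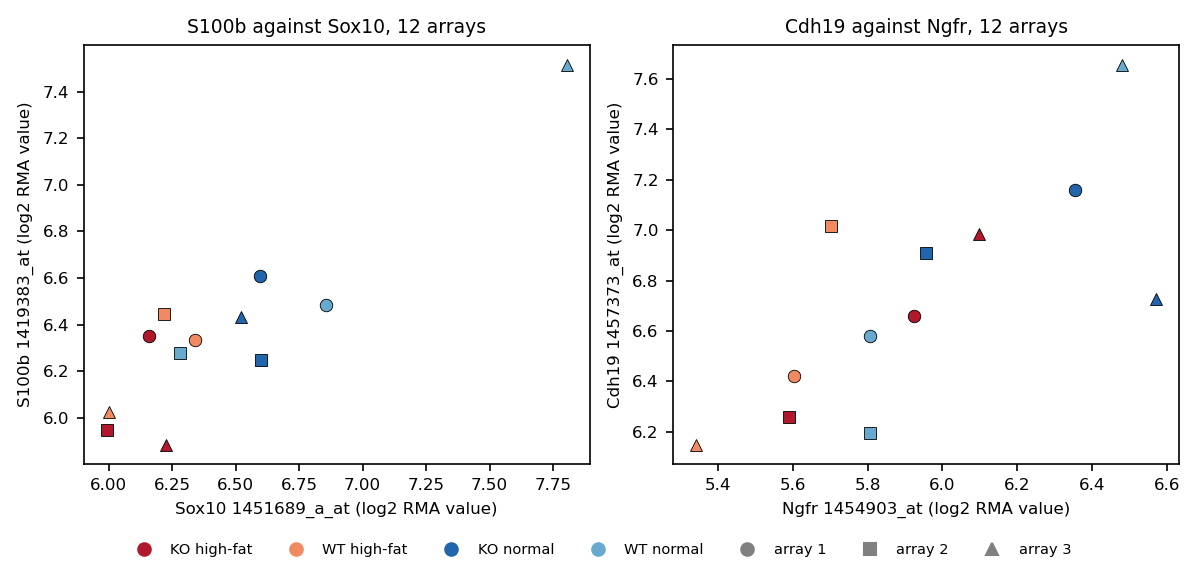
Log2 RMA value of S100b against Sox10 (left) and of Cdh19 against Ngfr (right), 1 point per array, with colour for the group and shape for the array number. WT normal array 3 is alone at the upper right for Sox10 and S100b (7.80 and 7.52), while the Ngfr and Cdh19 values spread along the whole range.

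The genes most like each member were listed as a description over the 12 arrays, by Pearson r with its lead probe set among 15236 other genes. For Sox10 they were Tmprss5, a membrane serine protease (r = 0.963), Bean1 (0.959) and Tppp3, a tubulin-binding protein (0.946). For S100b they were again Tmprss5 (0.961), Timp2, an inhibitor of metalloproteinases (0.957), and Sfrp1, a secreted Wnt antagonist (0.947). All 5 were highest on WT normal array 3, and without it their r lay between 0.818 and 0.904. Without it none of these genes was among the 3 nearest, which were 4921525O09Rik, Mab21l2 and Mrap2 for Sox10 and Ngb, Vcan and Ppp2r2b for S100b.

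Ngfr was most like Kcna6, a potassium channel (0.937), Gfra2, the co-receptor for neurturin (0.934), and Rnf112 (0.926), which kept r = 0.923, 0.920 and 0.906 without WT normal array 3. Cdh19 was most like the potassium channels Kcnq3 (0.947) and Kcna4 (0.925) and the Notch target Hey2 (0.919), with 0.905, 0.904 and 0.866 without that array. The gene nearest to Gfap was Nrg1, a neuregulin, at 0.905 (0.918 without that array), then Pcbd1 at 0.873 and B230216N24Rik at 0.871. Erbb3 was most like S100a4, a calcium-binding protein of the S100 family (0.956), Phf13 (0.925) and Zfp532 (0.890), and these values changed by little without WT normal array 3 (0.954, 0.922 and 0.888). The 12 arrays come from 4 groups, so differences between the groups enter these values.

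The wider glial programme was followed in 33 further Schwann cell and glia genes, of which 28 had a probe set named for them and 24 passed the filter; Mag, Sox2, Cldn19 and Gjc3 did not. Between KO and WT, averaged over diets, 2 rose, 0 fell and 22 did not pass, a share of 8.33% beside 8.39% of all tested probe sets, with a median log2 difference of −0.02 (−0.04 over all probe sets) that was 0.11 without WT normal array 3. Here and in the lists below each gene counts by its lead probe set, while the 8.39% covers every tested probe set. The share among lead probe sets alone is not given here. Cryab, a small heat shock protein, averaged 9.90 ± 0.19 on the KO high-fat and 9.58 ± 0.15 on the WT high-fat arrays, and 10.28 ± 0.17 on the KO normal and 9.68 ± 0.30 on the WT normal arrays (SD, n = 3 each), a log2 difference of 0.46 (SE 0.11, limma adjusted p = 0.0298). A second Cryab probe set gave 0.03 (adjusted p = 0.899). Dhh, the hedgehog ligand of Schwann cells, gave 0.34 (adjusted p = 0.0480), and its second probe set −0.18 (adjusted p = 0.662). The Cryab call ended without any 1 of 7 arrays, which were array 3 of KO high-fat, 1 and 3 of WT high-fat, 1 and 2 of KO normal and 1 and 2 of WT normal (adjusted p from 0.0512 to 0.0774), and the Dhh call without any 1 of 10 of the 12 arrays, all but KO normal array 1 and KO high-fat array 1 (0.0509 to 0.109). Of the settings other than a left-out array, 3 of 10 ended the Cryab call and 5 of 9 the Dhh call.

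By diet, 22 of the 24 were lower on the high-fat diet in the average over genotypes, with a median log2 difference of −0.18 (0.00 over all probe sets) and −0.12 without WT normal array 3, and 0 passed. In KO mice alone 16 of 24 were lower (median −0.16) and in WT mice 20 of 24 (median −0.17, or −0.10 without WT normal array 3). Beside these, all 13 neuron markers were lower on the high-fat diet in KO (median −0.15) and in WT mice (median −0.26, or −0.15 without WT normal array 3), and 11 of 13 stellate cell, pericyte and fibroblast markers were lower in the average (median −0.16, or −0.10 without that array), with 0 of either list past the threshold. In KO mice all 11 acinar markers were lower as well (median −0.22), and in WT mice 8 of 11 (median −0.02, or 0.01 without WT normal array 3). The part of these other cell types in the lower glial values was not tested. The neuron and filament lists share Prph, Nefl and Nefm.

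Neuregulin and ErbB signalling, the pathway of Erbb3, had 19 of 23 named genes above the filter; 0 rose and 0 fell in any of the 7 comparisons. Nrg2, a neuregulin, had the smallest p between KO and WT in the average, with a log2 difference of 0.33 (limma adjusted p = 0.0721). It passed without KO normal array 1 (adjusted p = 0.0449) or KO high-fat array 1 (0.0465). A second Nrg2 probe set gave 0.07 (adjusted p = 0.569). The adaptor Grb2 gave −0.19 (adjusted p = 0.1002). Of the neurotrophins, their receptors and the proteins that bind p75, 18 of 21 named genes were above the filter, and again 0 passed. Bex3 and Maged1, both binding partners of p75, gave −0.18 and −0.17 (adjusted p = 0.0673 and 0.0811), and both passed without WT high-fat array 2 (0.0401 and 0.0436) and with a prior variance that follows the mean level (0.0111 and 0.0122). Among 12 of 14 named S100 and Ager genes, 0 passed; S100a1 gave −0.26 (adjusted p = 0.0550), passing without KO high-fat array 1 (0.0342) or without WT high-fat array 2 (0.04999) and in 3 of 10 other settings (lowest 0.0327), and S100a16 −0.25 (adjusted p = 0.114), passing without WT high-fat array 2 (0.0379).

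Of 16 intermediate filament genes, all above the filter, 1 rose and 0 fell between KO and WT in the average, a share of 6.25% where 8.39% of all probe sets were called. It was Ina, a neuronal filament protein, with 0.25 (limma adjusted p = 0.0372), whereas its other 2 probe sets gave −0.21 and −0.28 (adjusted p = 0.0886 and 0.0718). The call ended without any 1 of 9 of the 12 arrays, all but KO normal array 1 and WT high-fat arrays 1 and 2 (0.0507 to 0.0927), and in 3 of 10 other settings. Of 19 SoxE factors and partners above the filter, out of 21, 1 rose (5.26%): Pax3, a neural crest transcription factor on chromosome 1, with 0.33 (adjusted p = 0.0383). That call ended without any 1 of 10 of the arrays, all but KO normal array 1 and WT high-fat array 2 (0.0556 to 0.0924), and in 2 of 8 other settings. Sgpp2 is on chromosome 1 too, and the part of that position in the Pax3 value was not tested. No gene of these lists passed for diet or for the interaction.

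Among 14 of 16 named classical cadherins above the filter, 1 rose in KO (7.14%, again beside 8.39% of all probe sets), and it is the neighbour of Cdh19. Cdh7, a cadherin with 0 protein-coding genes between it and Cdh19 on chromosome 1, read 10.20, 9.41 and 9.84 on the KO high-fat arrays and 8.85, 9.11 and 8.46 on the WT high-fat arrays, and 10.54, 9.93 and 10.29 on the KO normal arrays and 8.90, 9.42 and 9.58 on the WT normal arrays with its lead probe set. All KO arrays lay above all WT arrays of the same diet. The difference over both diets was 0.98 on the log2 scale, or 1.98-fold (SE 0.17, limma adjusted p = 0.00835), and the call held without each of the 12 arrays in turn. Its other 2 probe sets gave −0.32 and −0.22 (adjusted p = 0.327 and 0.436), and the mean of the 3 gave 0.15 (adjusted p = 0.529), so the rise belonged to 1 probe set. Cdh19 itself gave 0.11 (adjusted p = 0.789).

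Sgpp2 is on the same chromosome, with 197 protein-coding genes between it and Cdh7 and 198 between it and Cdh19. Of the other neighbours of Cdh19 with a named probe set above the filter, Serpinb8, 2 genes away on the side of Cdh7, gave 0.71 (limma adjusted p = 0.0322), and Dsel, the next gene on the other side, −0.05 (adjusted p = 0.733).

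Of 84 genes above the filter in the lists for other cell types, 4 passed between KO and WT in the average over diets, a share of 4.76% beside 8.39% of all tested probe sets. Pecam1 and Kdr of the endothelial list fell, by 0.50 and 0.23 on the log2 scale (limma adjusted p = 0.0247 and 0.0466), Cx3cr1 of the myeloid list fell by 0.47 (0.0142), and Pdgfrb of the stellate and pericyte list gave 0.34 (0.0253), with −0.11 in a second probe set. The Cx3cr1 call held without each array in turn but not for the mean of its probe sets (−0.18, adjusted p = 0.148). The Kdr call ended without any 1 of 10 arrays, all but WT high-fat array 3 and KO high-fat array 1, and in 6 of 10 other settings; the Pdgfrb call ended without any 1 of 6 (array 1 of KO high-fat, 1 and 3 of WT high-fat, 1 and 3 of KO normal and 1 of WT normal) and the Pecam1 call without any 1 of 5 (array 3 of KO high-fat, 1 of WT high-fat, 2 and 3 of KO normal and 1 of WT normal). With an array left out the adjusted p of these lost calls lay between 0.05003 and 0.101. Of 10 other settings, 1 ended the Pdgfrb call and 0 the Pecam1 call. All 11 acinar markers were higher in KO in the average (median 0.14), 0 past the threshold, with mean list levels of 12.48 to 12.57 on the KO high-fat arrays, 12.21 to 12.73 on the WT high-fat arrays, 12.60 to 12.91 on the KO normal arrays and 12.37 to 12.68 on the WT normal arrays. The duct, adipocyte, melanocyte and lymphocyte lists had 0 genes past the threshold in any comparison; Cftr of the duct list, Adipoq, Lep and Cidec of the adipocyte list and Tyr and Tyrp1, the defining melanocyte markers, did not pass the filter.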

How the data were processed

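Total RNA (4 µg per sample) from C57BL6 mice was hybridised to 12 Affymetrix mouse genome arrays, 3 per group of genotype and diet. The values deposited by the authors are log2 RMA values; per the submitters' processing notes the tools were RMA and Partek 6.6, with no order or options stated. RMA is meant to bring all arrays to 1 distribution, so a shift common to all genes may not be seen. The deposited values still had medians from 7.00 on KO normal array 3 to 7.13 on WT high-fat array 3. Probe affinity keeps levels of different probe sets from being compared.

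Of 45101 probe sets, 64 controls were left out, and 35426 with a log2 value above 5 on at least 3 arrays were tested. The probe annotation named 1 symbol for 34945 probe sets, several for 932, and 9160 were not listed. One model with the 4 groups was fitted with limma 3.58.1 (R 4.3.3; lmFit, eBayes, 8 residual degrees of freedom), with p-values adjusted by Benjamini-Hochberg over all tested probe sets and called under 0.05. It was tested on simulated data. Correlations used 100000 permutations (scipy 1.17.1). Named genes were the members, the list genes past the threshold and, in a pathway list with none, the smallest p-values between KO and WT. Outside this rule, Fabp7, Kcna1, Ednrb, Nefl and Prph were named for their level on WT normal array 3. Serpinb8 and Dsel were named as neighbours of Cdh19. The genes most like a member were named by their correlation, and some cell type markers by level alone. Members, 7 pathway lists and 10 marker lists were chosen with earlier results of these data known. Alternatives changed the filter, scaling, weights, probe-set summary, blocking and each array in turn. The number of arrays limits the precision.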

Additional observations from a re-analysis of the deposited data

How the results depend on the processing

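Over 44 values of glial probe sets and 958 recalculations, 28 kept their sign throughout, 30 recalculations gave another sign and 1 passed the threshold. The settings were another filter or none, other scalings, array weights, a gene mean, blocking and leaving out each array; leaving out WT normal array 3 from correlations, likeness and list medians was chosen after seeing the data.

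Signs turned without leaving out an array for Gfap between KO and WT on the normal diet (−0.009 with array weights), for Sox10 on the high-fat diet (0.014 as the gene mean), for Erbb3 in the average (0.0075 after median centring, 0.02 after cyclic loess) and for Ina (−0.0815 as the gene mean). The cause was not tested.

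Leaving out 1 array gave KO minus WT ranges on the normal diet of −0.758 to 0.003 for Sox10, −0.571 to 0.0485 for S100b, −0.0763 to 0.127 for Gfap and −0.187 to 0.544 for Cdh19. On the high-fat diet the ranges were −0.154 to 0.0161 for Sox10, −0.0427 to 0.156 for Gfap, −0.0843 to 0.350 for Cdh19 and −0.0792 to 0.0754 for Erbb3. In the average they were −0.0276 to 0.0736 for the second Sox10 probe set, −0.0058 to 0.096 for Gfap and −0.0408 to 0.325 for Cdh19. For the diet they were −0.589 to 0.142 for Cdh19 and −0.144 to 0.0057 for Erbb3 in WT, −0.0374 to 0.121 for Erbb3 in KO and −0.0645 to 0.0212 for Erbb3 in the average. The count of called glial probe sets in the KO average was 0 to 1, and the diet median of the 10 was −0.35 to −0.15. Of 15 correlations 4 passed, 6 as deviations from group means, and 0 without 2 arrays or without WT normal array 3.

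The replicate numbers were not taken to pair the arrays, since not every pair reached a correlation of 0.1: same-numbered KO arrays of the diets had deviations correlated at 0.257, 0.260 and 0.061, and WT arrays at 0.182, 0.181 and −0.073. Differently numbered arrays of the diets ran from −0.359 to 0.158 in KO and from −0.246 to 0.081 in WT. Whether the numbers pair the arrays is not settled by these values. With a replicate block 0 glial probe sets were called; over all probe sets it gave 175 calls against 476 for KO and WT on the normal diet, 27 against 96 on the high-fat diet, 0 against 18 for diet in WT and 1 against 63 for diet in the average. With same-numbered KO arrays as a random block (correlation 0.283) it gave 1870 against 2972 for KO and WT in the average and 228 against 63 for diet in the average, again with 0 glial probe sets.

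Counts over all probe sets ran, over all settings, from 13 to 1903 (476 as reported) for KO and WT on the normal diet, 2 to 910 (96) on the high-fat diet and 652 to 5075 (2972) in the average. For diet they ran from 0 to 32 (18) in WT and 1 to 228 (63) in the average. With 3 arrays per group the median standard error of a difference between 2 groups was 0.18 for glial probe sets and 0.13 for all.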
